A study of Mus musculus with 6 samples.

Results

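The Rab GTPase family was described in the pigmented mouse melanoma line B16.F10, either left without treatment or given 3.5 µM simvastatin for 24 h. Members were all genes whose symbol is Rab followed by a number and at most a letter and a digit. This rule found 37 genes with 62 transcripts, of 8513 genes and 15905 transcripts in the authors' deposited table. Each condition held 3 samples of wild-type cells, described in the series text as biological replicates, and the labels give 1 batch date for all 6 samples. The table holds a single value per condition for each transcript, so the spread between samples could not be computed and sequencing depth is unknown. Since the unit of these values is not stated, results compare conditions. The size of a total is used across genes to choose which are named and to mark low values. It also enters sums over lists of genes, where genes with larger values weigh more. Melanocytic markers fitted the label of the cells: 10 of 10 listed genes were in the table, and the 18 fibroblast, immune, endothelial and epithelial markers looked up had no row used here. Summed over the 10 genes, the melanocytic markers stood at 11774.96 with simvastatin and 8261.69 in control, and their part in the Rab values was not tested.

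Rab proteins are small GTPases that mark the membranes of the secretory and endocytic pathways and recruit motors, tethers and other effectors when they hold GTP. To sit on a membrane, most Rab proteins need geranylgeranyl lipids on cysteines at the protein's end. In most cases a dedicated prenyl transferase attaches the lipid with the help of a Rab escort protein. The lipid is made from mevalonate, whose synthesis statins block. In pigment cells, Rab32 and Rab38 bring pigment enzymes to the melanosome, and Rab27a links the finished melanosome to the actin motor myosin Va. The values below are RNA levels and do not measure lipid attachment.

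The lipid-carrying end is the stretch of these genes closest to the drug's pathway, so the last 9 codons and the stop codon are shown for members on which the results turn. They were read from the GENCODE transcripts of GRCm38, from the coding strand. Capitals mark the cysteine codons.
Rab6b: ccggccagcgagggcggcTGCtccTGTtaa
Rab4b: gccgtggcccctcagcccTGTggcTGCtga
Rab27a: gagaaggagaaggggttgTGTggcTGTtga
Rab7: aaggcctccgcagaaagcTGCagtTGTtga
Rab1: gtcaagcagtcaggtggaggcTGCTGCtaa
Rab10: gtgacgggctggaagagcaagTGCTGCtga
Rab32: acaacaaagcccaggtcccagTGCTGCtga
Rab5b: cagaacaagagccagTGTTGTagcaactga
Rab17: atcaggcagcgccagTGCTGTgcacgatag
Rab13: aagaagaagaacaagTGCttgttaggctga
Rab38: gtcagcTGCtctggcTGTgccaaatcctag
The first 4 have cysteine codons as the last and the third from the end, the next 3 have them as the last 2 codons, and Rab5b and Rab17 have 2 adjacent ones followed by other codons. Rab13 and Rab38 have 1 cysteine codon at the fourth place from the end, and Rab38 has a further one upstream of it.

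Across the whole family these patterns were held by 9, 12, 9 and 6 genes in that order, and the single Rab18 transcript in the table, which is not the principal one of that gene, had none of them. The tail came from a transcript of the deposited table for 36 genes and from the principal GENCODE transcript for Rab24. The median log2 ratio of gene totals, simvastatin over control, was 0.23 for the 9 genes with cysteine codons at the last and the third place, and 9 of the 9 were higher with simvastatin. It was 0.28 for the 12 genes ending in 2 cysteine codons (11 higher), 0.14 for the 9 with an adjacent pair inside the tail (7 higher) and 0.10 for the 6 with a single codon (5 higher). The ranges of these groups overlapped, from -0.26 to 1.36 for the second and from -0.21 to 0.64 for the last, and no test was made of their differences.

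Most Rab genes were slightly higher with simvastatin, and no Rab transcript passed the adjusted threshold. A gene total here is the sum of a gene's transcript values in 1 condition. Of the 37 gene totals, 33 were higher with simvastatin and 4 lower (Rab17, Rab23, Rab24 and Rab31), while 51.7% of all genes and 54.1% of protein-coding genes were higher. By transcript the lean was weaker, with 44 of 62 higher and 18 lower (71.0% higher, against 51.0% of all transcripts). The median ratio over the Rab genes was 1.18 (log2 ratio 0.24), against a median log2 ratio of 0.02 over all genes. That median was exceeded by 33 of the 37 Rab genes. Scaling both conditions to the same sum cannot change this count, because it shifts the log2 ratio of every gene equally. Against the all-gene median of the same setting, the count was 31 with each gene's transcript of highest mean value. It was also 31 without transcripts that differed by over 5-fold, and 32 among genes with a mean total of at least 1. The differences were small: 28 genes had a ratio between 1 and 1.5, 5 had 1.5 or more, and 1 had 1/1.5 or less. The middle 50% of all genes ran from -0.32 to 0.35 on the log2 scale and held 24 of the 37 Rab genes, with 11 above it and 2 below. All Rab transcripts together summed to 1236.94 with simvastatin and 1051.78 in control, a ratio of 1.18. The sum of all values in the table went the other way, with a ratio of 0.872, and the ratio of sums of protein-coding genes was 0.980. In bulk RNA, a different share of cells and a different level per cell cannot be told apart.

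**Figure D1:**
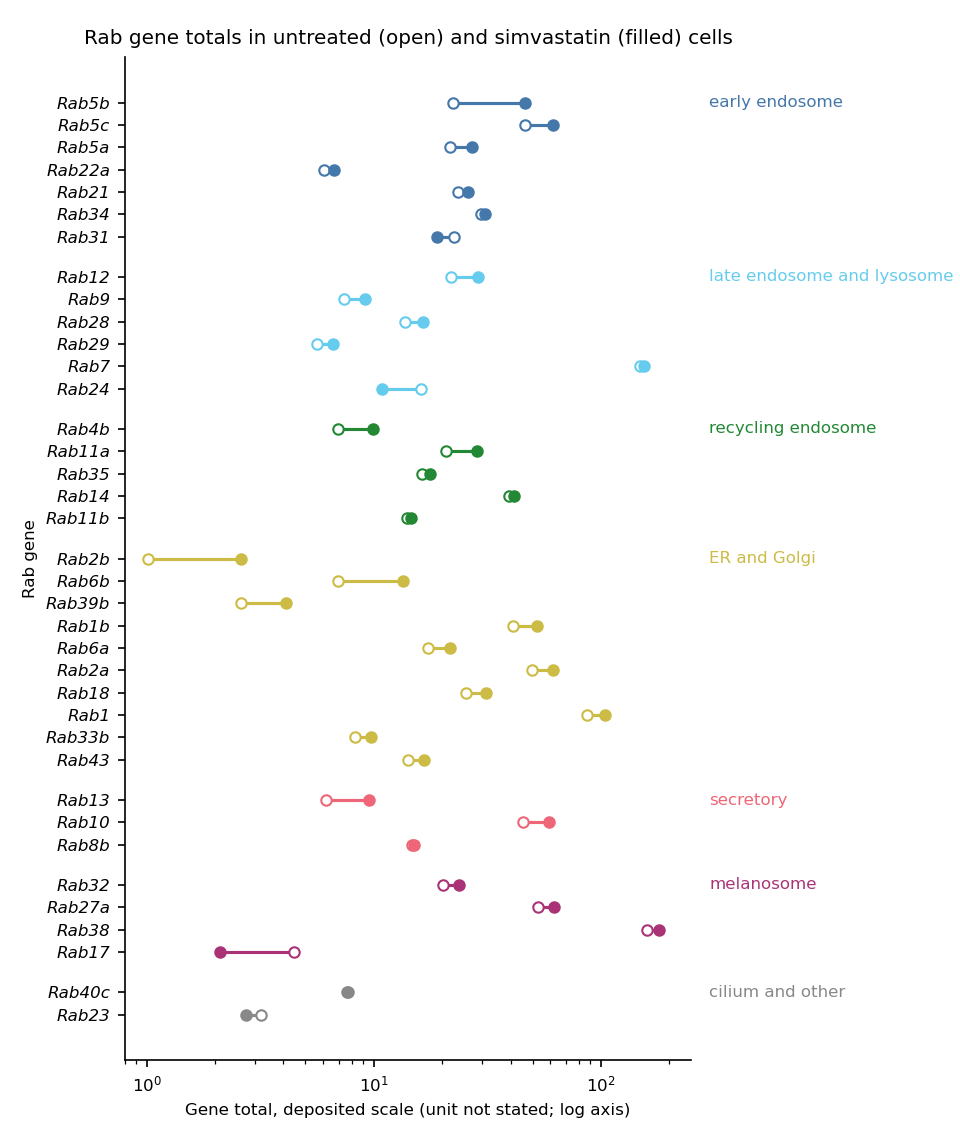
Gene totals of the 37 Rab genes on the deposited scale (log axis, unit not stated), with open points for control and filled points for simvastatin, by compartment; there is 1 value per condition, so no error bar can be drawn. The filled point lies to the right for 33 genes, and to the left for Rab31, Rab24, Rab17 and Rab23.

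By the authors' adjusted p-value under 0.05, 0 of the 62 Rab transcripts were called, where 2.09% of all transcripts were (1.11% higher and 0.987% lower). The test behind the deposited p-values is not named in any label or header. Without adjustment, 11 Rab transcripts had a p under 0.05 (17.7%, against 19.6% of all transcripts). Of these 10 were higher, 16.1% of Rab transcripts against 9.42% of the table, and 1 was lower, 1.61% against 10.2%. At an adjusted p under 0.1, 2 Rab transcripts were called (3.23%, against 7.78% of the table, 4.02% higher and 3.76% lower). The same 2, both higher, had the authors' own call, which reached adjusted p-values of 0.2 at folds from 1.5 up (3.23%, against 9.5% of the table, 5.13% higher and 4.37% lower). Counting both directions, the share of Rab transcripts called was below that of the table under each of these 4 rules. The rules overlap and the Rab counts were small, and without adjustment the shares were close. No test was made of these shares.

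**Figure D2:**
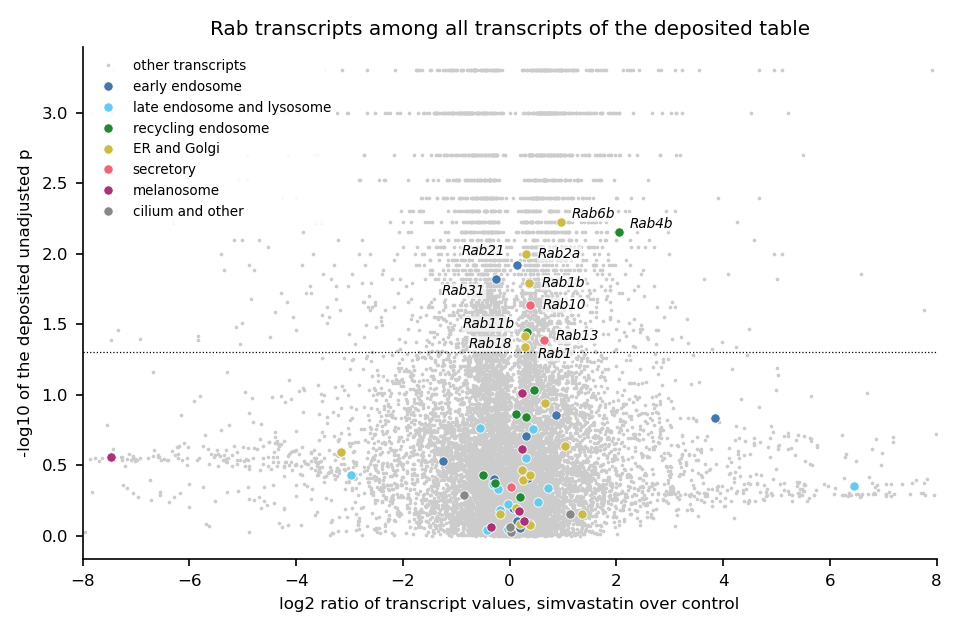
Each transcript's log2 ratio of values (horizontal axis) against -log10 of the deposited unadjusted p (vertical axis), with Rab transcripts coloured by compartment and all others in grey; p-values are deposited to 3 decimals, those printed as 0 are drawn at the top, and transcripts beyond 8 on the log2 scale or with a condition at 0 are not drawn. The dotted line marks the unadjusted threshold of 0.05, and of the 11 Rab transcripts above it only Rab31 lies left of 0.

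The ER and Golgi list held the Rab genes of the early secretory route, and 10 of its 10 gene totals were higher with simvastatin (median log2 ratio 0.31, range 0.23 to 1.36). Rab6b (chromosome 9, 103111787 to 103185276, GRCm38), a paralog of the Golgi retrograde transport protein Rab6a, was 1 of the 2 transcripts with the authors' call. It stood at 13.48 with simvastatin and 6.92 in control, 1.95-fold in the authors' deposited table (unadjusted p = 0.006, adjusted p = 0.087). Its ratio was above that of 94.3% of all genes. Rab1 (chromosome 11, 20201432 to 20226856), which directs transport from the ER to the Golgi, had a total of 104.67 against 87.02 over 4 transcripts. The main coding transcript of Rab1 had an adjusted p of 0.25 in the authors' deposited table, at 90.64 against 74.23. The second coding transcript, ENSMUST00000163483, went the other way at 2.4 against 2.73 (adjusted p = 0.864 in the authors' deposited table).

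The other members of this list were close to Rab1 in ratio, or had low values. Rab1b, which shares the role of Rab1, stood at 52.31 against 40.83 (adjusted p = 0.142 in the authors' deposited table). Rab2a, which acts at the Golgi, stood at 61.4 against 49.88 (adjusted p = 0.113 in the authors' deposited table). Its paralog Rab2b (chromosome 14, 52261759 to 52279545) had the widest ratio of the list, 2.57, but from values of 2.6 and 1.01 and with an adjusted p of 0.861 in the authors' deposited table. Rab39b stood at 4.12 against 2.6, and Rab18, found on the ER and lipid droplets, at 31.16 against 25.51 (adjusted p = 0.408 and 0.222 in the authors' deposited table). Gene totals of Rab6a, Rab33b and Rab43 had ratios of 1.25, 1.17 and 1.17.

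The secretory list held 3 measured genes, all higher with simvastatin, while Rab3a, Rab3b, Rab3c, Rab3d, Rab8a and Rab27b, also known for exocytosis, had no row used here. Rab10 (chromosome 12, 3247428 to 3309969), which moves vesicles from the Golgi to the cell surface, stood at 59.23 with simvastatin and 45.23 in control (adjusted p = 0.172 in the authors' deposited table). Rab13 (chromosome 3, 90213695 to 90226385), which delivers proteins to cell junctions, stood at 9.53 against 6.13, 1.56-fold in the authors' deposited table (unadjusted p = 0.041, adjusted p = 0.234). Rab8b was nearly level, at 15.02 against 14.79. The median log2 ratio of these 3 genes was 0.39.

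Of the 4 melanosome genes, 3 had ratios from 1.13 to 1.18, and Rab17 was lower from small values. Rab38 (chromosome 7, 88430273 to 88491572) stood at 181.2 with simvastatin and 160.32 in control, with a fold of 1.13 and an adjusted p of 0.84 in the authors' deposited table. Rab32 (chromosome 10, 10545002 to 10558265), its paralog, stood at 23.77 against 20.11, with a fold of 1.18 and an adjusted p of 0.578 in the authors' deposited table. Rab27a (chromosome 9, 73044854 to 73097629) had a total of 62.07 against 52.87, most of it from an assembled transcript model at 53.8 against 46.02 (adjusted p = 0.371 in the authors' deposited table). None of these 3 genes had a transcript with an unadjusted p under 0.05.

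Rab17 (chromosome 1, 90958133 to 90969661), linked to the release of melanosomes, had a total of 2.11 with simvastatin and 4.45 in control, both low. The gap came mostly from ENSMUST00000131428, listed at 0.01 and 1.77 (unadjusted p = 0.278, adjusted p = 0.602 in the authors' deposited table). The other transcript, with the same coding sequence, stood at 2.1 against 2.68. The median log2 ratio of the 4 melanosome genes was 0.20. A broader list of 10 genes with reported melanosome roles, which adds members of other compartments such as Rab1, Rab5b and Rab7, had a median of 0.20 too, with 9 of 10 higher.

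Of the 18 endosomal genes, 16 were higher with simvastatin, with a median log2 ratio of 0.19 and a range of -0.56 to 1.05. On the early endosome list, 6 of 7 genes were higher (median 0.15). Rab5 proteins drive the fusion of early endosomes. Rab5c (chromosome 11, 100715009 to 100738215) had a total of 61.34 against 46.43, Rab5a stood at 27.02 against 21.76, and Rab5b (chromosome 10, 128677175 to 128696264) had 46.28 against 22.34. Rab21, an integrin trafficking protein, stood at 26.04 against 23.59, and Rab22a and Rab34 had ratios of 1.11 and 1.04. Rab31, which acts between the Golgi and endosomes, was the single Rab transcript on the lower side at an unadjusted p under 0.05, at 18.97 against 22.64 (unadjusted p = 0.015, adjusted p = 0.139 in the authors' deposited table).

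On the late endosome and lysosome list, 5 of 6 genes were higher (median 0.25). Rab7 (chromosome 6, 87999106 to 88045270), which directs late endosomes to lysosomes, had a total of 154.81 against 149.04. Rab24 (chromosome 13, 55319743 to 55321946), linked to autophagy, was the member on the lower side, at 10.89 against 16.09 from 1 assembled model (adjusted p = 0.501 in the authors' deposited table). Rab9, which returns receptors from late endosomes to the Golgi, stood at 9.13 against 7.41, and Rab12, Rab28 and Rab29 had ratios of 1.32, 1.20 and 1.18.

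All 5 recycling endosome genes were higher, with a median of 0.12. Rab4b (chromosome 7, 27168424 to 27178896), of the fast recycling route, held the other transcript with the authors' call. That transcript, ENSMUST00000152753, is annotated as a processed transcript without a coding sequence and stood at 2.62 against 0.63, 4.17-fold in the authors' deposited table (unadjusted p = 0.007, adjusted p = 0.094). The coding transcript of Rab4b stood at 7.29 against 6.33 (adjusted p = 0.759 in the authors' deposited table). Rab11b (chromosome 17, 33742484 to 33760530), of the slow recycling route, had a total of 14.52 against 13.94 over 2 coding transcripts in opposite directions. The longer one stood at 10.58 against 8.4 and the shorter one at 3.94 against 5.54 (adjusted p = 0.216 and 0.674 in the authors' deposited table). Rab14 (chromosome 2, 35180205 to 35201120), which acts between the Golgi and endosomes, had a total of 41.47 against 39.29. Its coding transcript was lower with simvastatin, at 14.69 against 17.73, and its retained-intron transcript was higher, at 26.78 against 21.56 (adjusted p = 0.712 and 0.461 in the authors' deposited table). Rab11a and Rab35 had ratios of 1.37 and 1.08.

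The remaining 2 genes act outside these routes and were near level or low. Rab40c (chromosome 17, 25882114 to 25919727), part of a ubiquitin ligase, had 7.73 against 7.62. Rab23 (chromosome 1, 33719887 to 33742564), an inhibitor of hedgehog signalling at the cilium, had 2.74 against 3.17. Its coding transcript stood at 1.41 against 2.56 and its other transcript, annotated for nonsense-mediated decay, at 1.33 against 0.61 (adjusted p = 0.748 and 0.866 in the authors' deposited table). Between the compartment lists, the medians ran from -0.09 for these 2 genes to 0.39 for the secretory list, and the values overlapped as the plot by compartment shows. Genes of a list are not replicates of a condition, so no test was made of endosomal against secretory or melanosome genes.

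**Figure D3:**
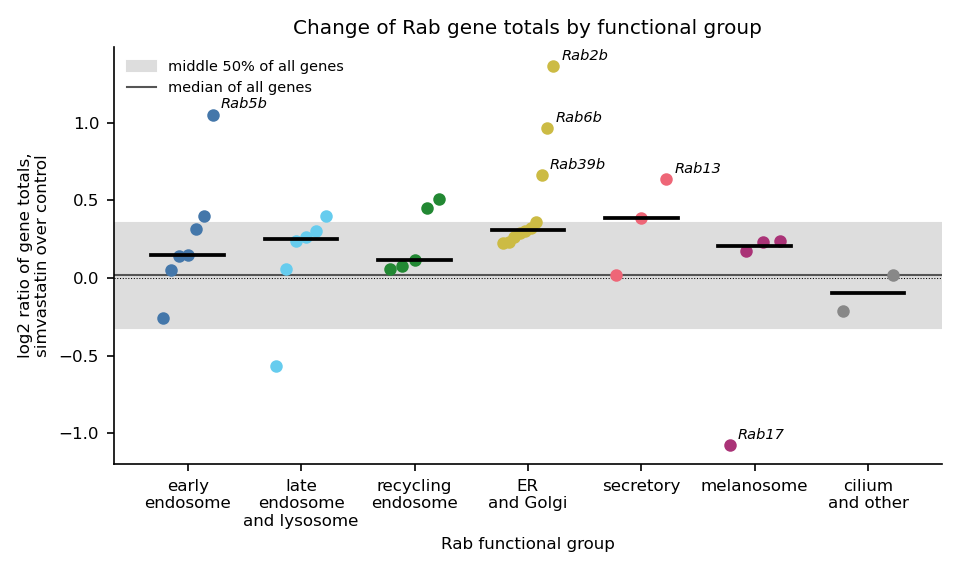
Log2 ratio of gene totals, simvastatin over control, for each Rab gene (points) by compartment, with the median of each list as a black bar and the middle 50% of all genes as a grey band from -0.32 to 0.35. The lists overlap, and all 10 ER and Golgi genes lie above 0.

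Several gene totals hid transcripts that went in different directions. Of the 17 Rab genes with 2 or more transcripts, 11 had transcripts on both sides, and 5 Rab transcripts differed by over 5-fold. None of these 5 had an unadjusted p under 0.05. In Rab5b, ENSMUST00000000727 stood at 24.74 with simvastatin and 1.71 in control, 14.46-fold in the authors' deposited table (unadjusted p = 0.147, adjusted p = 0.465). Its share of the gene total was 53.5% with simvastatin and 7.65% in control. Without it the total of Rab5b was 21.54 against 20.63.

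In Rab7, ENSMUST00000113596 stood at 12.27 against 0.14, 87.92-fold in the authors' deposited table (unadjusted p = 0.44, adjusted p = 0.718). The other 3 Rab7 transcripts were slightly lower with simvastatin, and without the first the total was 142.54 against 148.9, which turns the direction of the gene. ENSMUST00000113596 has the same coding sequence, 624 bases with the stop codon, as 2 of those 3. Rab6a had the opposite case, with ENSMUST00000032946 at 0.26 against 2.33. That transcript and the main one of Rab6a have coding sequences of equal length, 627 bases, that are not identical. In Rab28, also found at cilia, ENSMUST00000201422 stood at 0.13 against 1.02. Without these transcripts the totals were 21.3 against 14.95 for Rab6a and 16.27 against 12.66 for Rab28.

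**Figure D4:**
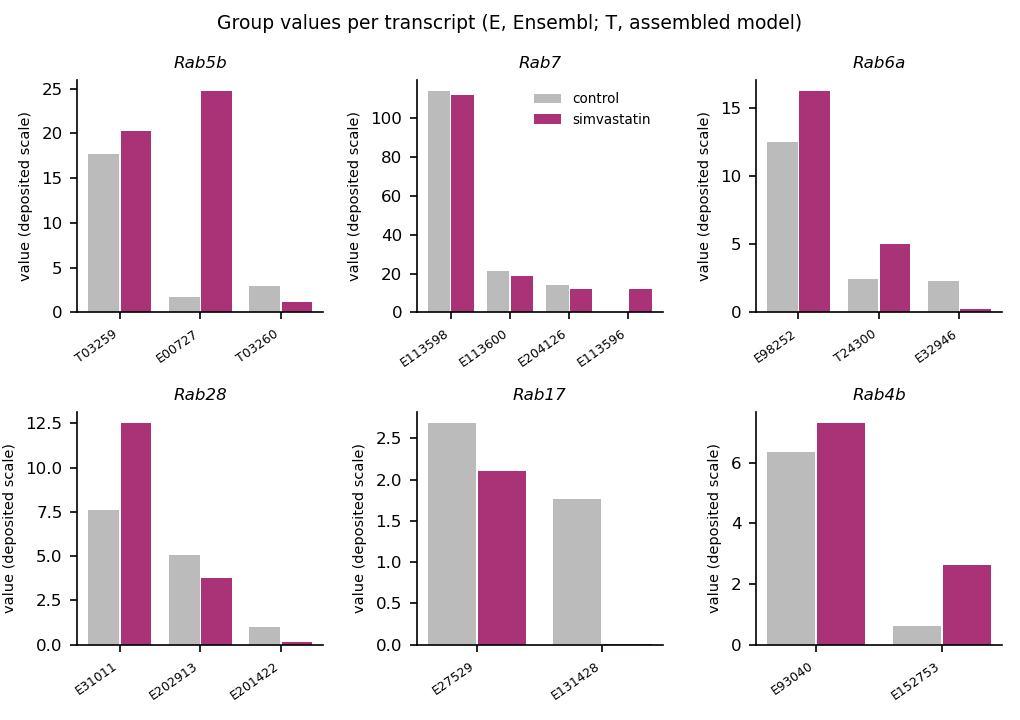
Group values of each transcript on the deposited scale (bars from 0, grey for control and purple for simvastatin, no error bars because there is 1 value per condition) for the 5 genes with a transcript that differed by over 5-fold and for Rab4b; E and T with the last digits stand for Ensembl transcripts and assembled models. The second bar pair of Rab5b stands at 1.71 in control and 24.74 with simvastatin, and the last pair of Rab7 at 0.14 and 12.27.

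Close paralogs can share reads, and no label or header says how the authors counted such reads. The coding sequences of Rab1 and Rab1b were identical at 77.2% of aligned bases with a longest shared run of 38 bases. Rab5a and Rab5b were identical at 74.3% (longest run 35), Rab6a and Rab6b at 77.2% (longest run 14), and Rab32 and Rab38 at 63.9% (longest run 14).

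RefSeq promoter windows on GRCm38, each of 300 bases and mostly before an annotated start, were read for 34 Rab genes (42 windows), with Rab18, Rab2a and Rab38 not listed. Some windows belong to other starts of a gene than those measured: 34 windows, of 32 genes, held the start of an Ensembl transcript of the table. The 6 assembled Rab models had no position here, so their starts could not be placed. The E-box CATGTG, a site type of the melanocyte factor Mitf and its relatives, was found on either strand in 3 of the 42 windows (7.14%), against 14.2% of 32851 windows of all genes. Of these 3, the windows of Rab28 and Rab34 held the start of a table transcript and that of Rab13 did not. The E-box CACGTG, also a site type of Mitf and its relatives, was found in 5 windows (11.9%, against 7.15%). Of these 5, the windows of Rab21, Rab23 and Rab5a held such a start. The others were of Rab24, which has only an assembled model in the table, and of Rab27a, at a start inside the gene. Whether these windows hold the start of the assembled model of either gene is unknown. CACGTG and CATGTG differ in 1 letter and do not match each other. The sterol element letters TCACNCCAC, where N is any base, were in 0 Rab windows and 1.24% of all windows. A match is a description of letters and shows no binding.

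Among genes that work with Rab proteins, 2 transcripts passed the adjusted threshold, both higher with simvastatin. Of 134 such genes listed by role, 90 were in the table, with 191 transcripts. Of these, 71 genes were higher with simvastatin and 19 lower (median log2 ratio 0.34). By the adjusted p-value under 0.05, 2 of their transcripts rose and 0 fell, against 2.09% of the table called either way. By the authors' call, 15 transcripts were higher and 2 lower (8.9%, against 9.5% of the table).

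Mreg, the melanoregulin gene, whose protein acts with Rab proteins in melanosome transport, rose from 26.81 to 45.97, with a fold of 1.71 and an adjusted p of 0.018 in the authors' deposited table. A transcript of Tbc1d1, an inactivator (GAP) of Rab proteins such as Rab10, rose from 1.49 to 7.16, with a fold of 4.8 and an adjusted p of 0.038 in the authors' deposited table. The second Tbc1d1 transcript stood at 4.16 against 8.62 (adjusted p = 0.209 in the authors' deposited table), and the gene total was 11.32 against 10.11.

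Partner genes named from here on were chosen after their values were seen. Among 13 genes of prenylation and recycling the median log2 ratio was 0.26. The subunit genes of the Rab prenyl transferase, Rabggta and Rabggtb, each had transcripts on both sides. Of Rabggta, ENSMUST00000163889 stood at 2.82 with simvastatin against 2.07 in control, and ENSMUST00000169237 at 0.19 against 1.55 (adjusted p = 0.654 and 0.377 in the authors' deposited table). The Rabggta total, 3.01 against 3.62, is on the lower side through the second transcript alone. Rabggtb had a total of 23.28 against 28.96 over 4 transcripts, and the smallest adjusted p among them was 0.634 in the authors' deposited table. Chm, a Rab escort protein, stood at 6.57 against 4.84 (adjusted p = 0.166 in the authors' deposited table). Gdi2, which extracts Rab proteins from membranes, had a total of 62.0 against 69.73.

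The 28 activators (GEF) and 24 inactivators (GAP) had medians of 0.30 and 0.26. The 25 effectors had a median of 0.47, and 11 of their 61 transcripts, of 8 genes, had the authors' call, all higher, where 5.13% of the table was called higher. No test was made of this share. All 6 transcripts of Myo5a, the myosin Va gene, were higher, with a total of 178.34 against 69.13. The Myo5a model TCONS_00027793 stood at 65.38 against 23.48 (adjusted p = 0.053 in the authors' deposited table). The Myo5a model with the highest values, TCONS_00027794, stood at 92.14 against 38.32 (adjusted p = 0.503 in the authors' deposited table). Mlph, melanophilin, which joins Rab27a to myosin Va, stood at 69.01 against 65.83 (adjusted p = 0.759 in the authors' deposited table). Of the 3 parts of this melanosome carrier, Myo5a thus had a ratio of 2.58, Rab27a of 1.17 and Mlph of 1.05. Of Golga2, a Golgi tether that binds Rab1, both transcripts had the authors' call, and the total was 20.8 against 10.88.

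**Figure D5:**
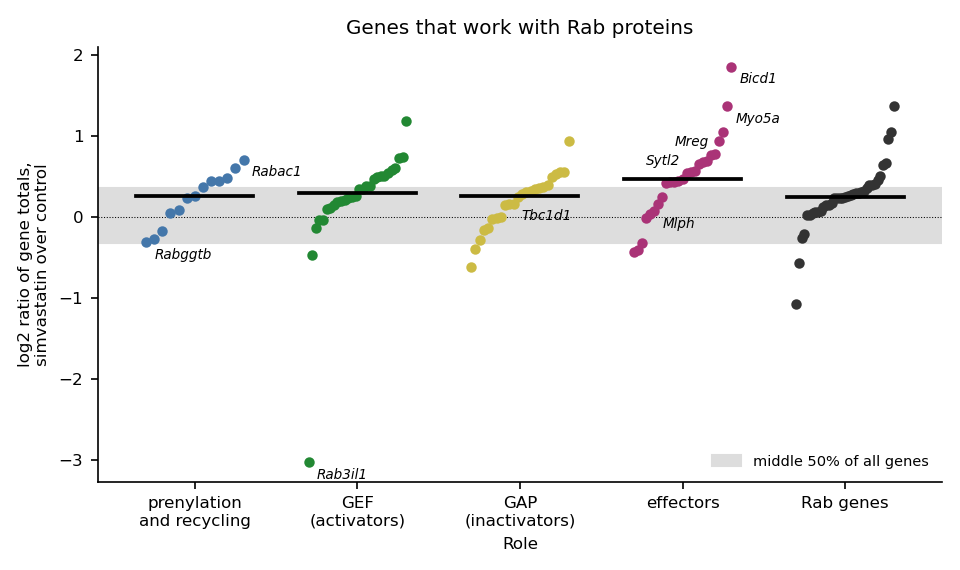
Log2 ratio of gene totals, simvastatin over control, for 90 genes that work with Rab proteins, by role, beside the 37 Rab genes; points are genes, black bars are medians and the grey band is the middle 50% of all genes. The effectors have a median of 0.47 and the Rab genes of 0.24.

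Both Rab transcripts with the authors' call also appear in other deposited tables. Rab6b and Rab4b are 2 of the 46 entries in the authors' deposited table of transcripts linked to aggressiveness. In the authors' deposited table of enriched terms, both are among the 49 genes of protein transport, and Rab6b among the 52 of Golgi membrane. These tables list called transcripts, so they repeat the call and add no measurement.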

How the data were processed

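RNA had been sequenced from 6 samples, 3 per condition, with stranded total RNA libraries per the labels' protocols. The submitters' processing notes name HISAT2 2.0.5, StringTie and the build GRCm38 (mm10). How transcripts were counted, filtered and tested is not stated in the labels or headers. Per the file headers, the authors deposited 1 signal value per condition and transcript, a signed fold ratio, a p-value and an adjusted p-value (3 decimals), and a call. The deposited fold and the ratio of the values differed by at most 0.571% for Rab transcripts with both values at least 1. The deposited term table gives, as another number, the genes per term.

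Values were summed per gene and expressed as log2 ratios with Python 3.11.15, pandas 2.3.3 and numpy 2.4.6. The gene totals and their log2 ratios were checked on simulated data with set folds and no noise, and the counts were not checked in this way. No test was refitted, because no per-sample value was used. The precision of single values is unknown. A transcript passed at the authors' adjusted p-value under 0.05. Adjusted p-values cover the whole table.

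The members, the compartment and partner lists and the tests were chosen with earlier results of these data known. Named were transcripts with a pass or the authors' call; melanosome genes; per other list the genes of highest total and largest log2 ratio (mean total at least 1); genes with transcripts in opposite directions, 1 of them at an unadjusted p under 0.05; and partners that passed. Other members are given by value or ratio. Of 59 Rab symbols in GENCODE, 22 had no row used here. Other call rules, scalings, filters, a pseudocount and transcript choices were tried. The values of 1 partner gene are not reported here.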

Additional observations from a re-analysis of the deposited data

How the results depend on the processing

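No paired analysis was possible because the deposited columns hold 1 value per condition and no replicate, and for the same reason no replicate could be left out. The count of Rab transcripts on the higher side was 0 at an adjusted p under 0.05, 2 by the authors' call, 2 at an adjusted p under 0.1 and 10 at an unadjusted p under 0.05; on the lower side it was 1 by the last rule and 0 by the others. For the 191 partner transcripts the higher count was 2, and 15, 12 and 34 under those rules in the same order. The lower count was 0, with 2 by the authors' call and 4 at an unadjusted p under 0.05. Of all transcripts, 1.11%, 5.13%, 4.02% and 9.42% were called higher by these rules in that order. The shares called lower were 0.987%, 4.37%, 3.76% and 10.2%. No test was made of the partner counts against these shares.

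Scaling both conditions to the same sum over the whole table moved every log2 ratio by 0.20. The median over all genes became 0.22 and that over Rab genes 0.44, with 66.1% of all genes and 33 of 37 Rab genes higher. The 2 genes outside the main routes then had a median of 0.10, above 0. Rab7 was below 0 with its transcript of highest mean value (-0.024) and without transcripts of over 5-fold (-0.063), the latter chosen after seeing the data. Rab5b had log2 ratios of 0.20 and 0.06 under these settings and of 3.85 from Ensembl transcripts alone, and Rab17 had -0.35 under both. Rab23 had -0.86 from its transcript of highest mean value. The median over all Rab genes stayed between 0.23 and 0.44, that of endosomal genes between 0.14 and 0.39, of ER and Golgi genes between 0.29 and 0.51, of secretory genes between 0.38 and 0.59 and of melanosome genes between 0.20 and 0.40. The number of Rab genes on the higher side ran from 31 to 33. The depth and the noise of single values are unknown, and 6 Rab transcripts had 1 condition under 1.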
